A study of Mus musculus with 12 samples.

Results

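The cathepsins and the inhibitor that restrains many of them were followed in bulk RNA sequencing of mouse myeloid cells from spleen and tumor. Ctsa, Ctsb, Ctsc, Ctsd, Ctsh, Ctsk, Ctsl, Ctss and Ctsz, with the inhibitor cystatin C (Cst3), were taken from the deposited matrix by gene symbol. All 10 genes were found among 54104 entries with an Ensembl gene ID. The 12 libraries formed 4 groups of 3, labelled Ly6C tumor, Ly6C spleen, Ly6G tumor and Ly6G spleen. The series calls the cells M-MDSCs and PMN-MDSCs, the monocytic and polymorphonuclear (neutrophil-like) classes of myeloid-derived suppressor cells, which are myeloid cells with suppressive activity that build up in tumor-bearing animals. The labels do not say which marker stands for which class, although Ly6C usually marks the monocytic and Ly6G the polymorphonuclear one. The labels name no strain, age, tumor model, sorting gate or treatment of the mice, nor do they say whether the 3 libraries of a group came from separate mice, so p-values measure only the spread between these libraries.

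Cathepsins are proteases of the lysosome and related endosomal compartments. Most are made as inactive precursors, carried there by mannose 6-phosphate sorting, and matured in the acid that the vacuolar ATPase pumps in. They digest endocytosed and autophagic proteins, trim the invariant chain and antigens in the class II pathway, activate the serine proteases of myeloid granules, and, when secreted in tumors, cut the extracellular matrix. Cysteine cathepsins (B, C, H, K, L, S and Z) share a papain-like fold, cathepsin A is a serine carboxypeptidase and cathepsin D an aspartic protease. Cystatin C is a secreted inhibitor that binds cysteine cathepsins tightly.

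Expression was given as FPKM, a count of sequenced fragments scaled by gene length and by the mapped total of its library, and so a scale per length on which levels of different genes can be compared. Changes are differences of log2(FPKM + 1) with the standard error of a limma model over all 12 libraries, and a gene was called at a Benjamini-Hochberg adjusted p under 0.05 over 13610 genes tested. All 10 genes passed the filter of 1 FPKM in at least 3 libraries. Ctsk passed with exactly 3, Ly6G tumor 1 and 3 and Ly6G spleen 3.

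Summed FPKM per library ran between 331681 and 449309, and libraries of 1 group correlated at 0.970 to 0.986 across genes. The depth in fragments is unknown, since counts could not be recovered from the values. Ly6g was 11.8 to 13.8 FPKM in Ly6C tumor against 31.5 to 54.1 in Ly6G tumor, and 131 to 209 FPKM in Ly6C spleen against 591 to 717 in Ly6G spleen. Ly6c2 did not separate the labels in either tissue: 6.35 to 8.16 FPKM in Ly6C tumor, 5.31 to 7.80 in Ly6G tumor, 223 to 272 in Ly6C spleen and 169.5 to 236.9 in Ly6G spleen. The tumor libraries stood apart from their label as myeloid cells. Their 20 pan-leukocyte genes summed to 191 to 389.7 FPKM in Ly6C tumor against 4542 to 5352 in Ly6C spleen, and to 474 to 831 in Ly6G tumor against 5530.2 to 5573 in Ly6G spleen. All 20 were lower in tumor under both labels, beside 30.5% of all genes tested in Ly6C and 24.7% in Ly6G. Krt8, a keratin of simple epithelia, was 576 to 769.96 FPKM in Ly6C tumor against 0 to 0.159 in Ly6C spleen, and 356 to 574 in Ly6G tumor against 0.0725 to 0.263 in Ly6G spleen, although Epcam was 0 in all 3 Ly6C tumor libraries. Mitochondrially encoded genes took 3.07% to 7.84% of the summed FPKM in Ly6C tumor against 1.68% to 2.50% in Ly6C spleen, and 5.41% to 11.9% in Ly6G tumor against 2.48% to 2.87% in Ly6G spleen, with no overlap between tissues. Since every tumor library shared these features, no comparison between tissues could be made without it.

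Promoters are shown for the genes whose changes between tissues were among the largest, Ctsl (higher in tumor), Ctss and Ctsc (lower), and for Ctsd, the cathepsin of highest mean level in both spleen groups. RefSeq windows of 300 bases on GRCm38.p6, reaching from 250 bases before to 50 after the transcript start, matched 8 of the 10 genes. Ctsb and Ctsh were not among them. Each is printed 5′ to 3′ on the strand of its gene, with capitals on the motifs CACGTG (the E-box core read by TFEB and other basic helix-loop-helix factors), CACGTGAC (the longer form known as the CLEAR element of lysosomal genes, which contains CACGTG) and GAGGAAGT (a core read by the myeloid factor PU.1), or on the reverse complement of a motif.
Ctsl, chr13:64370471-64370770, minus strand: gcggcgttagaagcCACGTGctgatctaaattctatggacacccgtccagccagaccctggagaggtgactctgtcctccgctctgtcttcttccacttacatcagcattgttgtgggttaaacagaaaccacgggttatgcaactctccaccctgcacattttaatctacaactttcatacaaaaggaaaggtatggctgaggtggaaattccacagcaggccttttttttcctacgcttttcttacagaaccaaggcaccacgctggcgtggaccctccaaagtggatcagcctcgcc
Ctss, chr3:95526536-95526835, plus strand: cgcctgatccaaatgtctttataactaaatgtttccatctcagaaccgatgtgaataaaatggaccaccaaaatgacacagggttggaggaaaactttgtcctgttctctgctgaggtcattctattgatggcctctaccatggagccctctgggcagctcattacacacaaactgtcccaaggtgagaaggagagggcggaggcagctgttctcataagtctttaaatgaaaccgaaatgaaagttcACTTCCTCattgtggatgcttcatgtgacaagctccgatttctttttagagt
Ctsc, chr7:88277835-88278134, plus strand: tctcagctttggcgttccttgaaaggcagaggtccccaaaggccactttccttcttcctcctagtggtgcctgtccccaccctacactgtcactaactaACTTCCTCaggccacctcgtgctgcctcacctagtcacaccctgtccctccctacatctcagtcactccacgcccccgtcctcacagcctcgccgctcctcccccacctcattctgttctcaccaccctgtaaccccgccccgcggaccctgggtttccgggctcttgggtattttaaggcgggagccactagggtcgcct
Ctsd, chr7:142387778-142388077, minus strand: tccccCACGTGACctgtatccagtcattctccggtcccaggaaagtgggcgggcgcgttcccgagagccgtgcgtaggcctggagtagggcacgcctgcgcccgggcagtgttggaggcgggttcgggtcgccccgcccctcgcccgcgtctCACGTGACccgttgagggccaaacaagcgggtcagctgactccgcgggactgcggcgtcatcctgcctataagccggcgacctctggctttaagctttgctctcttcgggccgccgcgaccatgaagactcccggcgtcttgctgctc
Over all 32851 RefSeq windows of this length and both strands, 7.15% held CACGTG, 2.25% held CACGTGAC and 3.2% held GAGGAAGT. The Ctsd window held CACGTGAC at 2 places, starting at -245 and -98 relative to the transcript start. The Ctsl window held CACGTG at -236 without the longer form. It lies wholly within the Ctsl gene of GENCODE M21 (chr13:64359337-64370890), downstream of the annotated 5′ end. Ctss held GAGGAAGT at -2 and Ctsc at -151, both as the reverse complement. A Ctsa window (chr2:164833523-164833822), also wholly within its gene, held CACGTGAC at 2 places, at -14 and 5. A second Ctsa window, which spans the annotated start of the gene, and those of Ctsz, Ctsk and Cst3 held none of the 3 motifs. A match is a stretch of letters and not a measured site.

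The 10 genes lie on 6 chromosomes (GRCm38 coordinates of GENCODE M21). Ctsk (chr3:95499256-95509362) and Ctss (chr3:95526786-95556403) are neighbours on the plus strand, with Ctsk the lowest of the 10 genes in every group and Ctss below only Ctsd and Cst3 by mean level in both spleen groups. Ctsc (chr7:88278085-88310888, plus strand) and Ctsd (chr7:142375911-142388038, minus strand) share a chromosome at a distance, as do Cst3 (chr2:148871722-148875692, minus strand), Ctsa (chr2:164832873-164841032, plus strand) and Ctsz (chr2:174427493-174439039, minus strand). Ctsl (chr13:64359337-64370890, minus strand), Ctsb (chr14:63122462-63145923, plus strand) and Ctsh (chr9:90054152-90076089, plus strand) each lie alone.

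Between tumor and spleen the family did not move as one. Ctsl was the one gene far higher in tumor under both labels, Ctss, Ctsc, Ctsh and Ctsd were lower in tumor under both, and Ctsb, Ctsa and Ctsk passed in neither comparison, on the deposited scale; scaled to 20 pan-leukocyte genes, the falls were no longer there. Within Ly6C, 5 of 10 genes were called, 1 higher and 4 lower, against a background of 76.7% of all genes tested called in either direction (46.2% higher and 30.5% lower). Within Ly6G, 7 of 10 were called, 2 higher and 5 lower, where 76.2% of all genes were called (51.5% higher and 24.7% lower). The share of these genes called was therefore no larger than that of genes at large. The groups did not overlap for 5 of 10 genes in Ly6C, beside 78.5% of all genes, and for 7 of 10 in Ly6G, beside 79.1%. The median change of the 10 genes was -0.08 in Ly6C and -0.15 in Ly6G, beside 0.27 and 0.43 for all genes tested. In bulk samples, fewer cells of a type and less RNA per cell cannot be told apart.

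**Figure D1:**
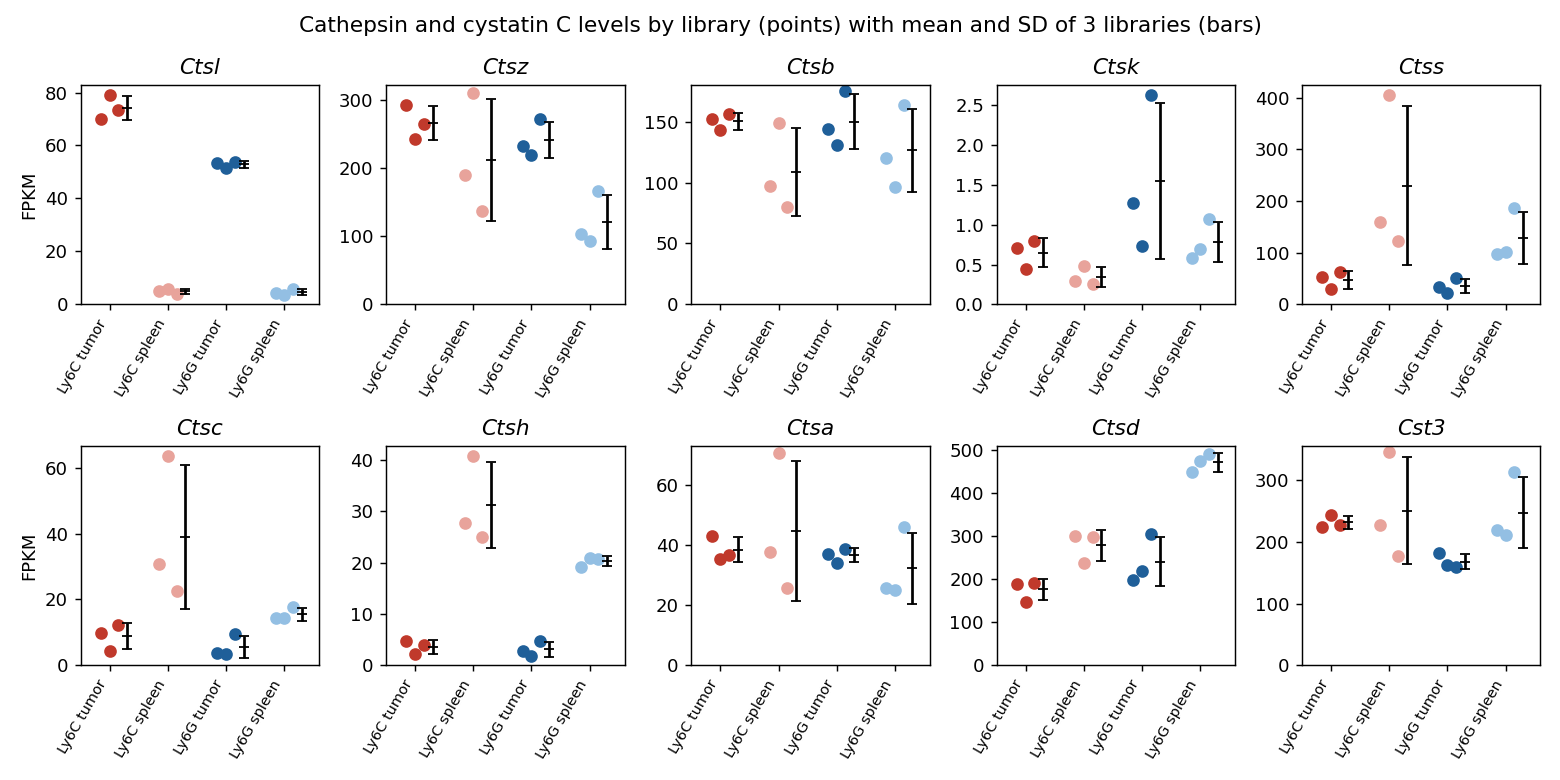
FPKM of each gene in the 12 libraries (points, 3 per group) with the mean and SD beside them (bars); the vertical axis starts at 0 and differs between panels. Ctsl lies at 51.3 to 79.1 FPKM in the tumor libraries and at 3.50 to 5.92 in the spleen libraries, while Ctss, Ctsc and Ctsh lie lower in tumor on this deposited scale, though not when libraries are scaled to 20 pan-leukocyte genes.

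Among the cysteine cathepsins, Ctsl encodes cathepsin L, an endopeptidase that in mice cuts the invariant chain in the cortical epithelium of the thymus and is secreted by many transformed cells. It had 70.2, 79.1 and 73.3 FPKM in Ly6C tumor, against 5.06, 5.89 and 3.87 in Ly6C spleen. It had 53.6, 51.3 and 53.7 FPKM in Ly6G tumor, against 4.35, 3.50 and 5.92 in Ly6G spleen. Every tumor library was far above every spleen library, and tumor libraries of 1 label lay close together. Mean FPKM was 15.02-fold higher in Ly6C tumor than in Ly6C spleen and 11.5-fold higher in Ly6G tumor than in Ly6G spleen. The log2 changes were 3.68 ± 0.16 (limma adjusted p = 2.62e-09) and 3.29 ± 0.16 (limma adjusted p = 7.61e-09), ranking 300th and 408th from the highest of all genes tested. The direction and the call held under every alternative run, and the mouse placental cathepsins that are close relatives of cathepsin L (Ctsj, Ctsm, Ctsq, Ctsr, Cts3, Cts6, Cts7, Cts8 and Ctsll3) were at 0 in all 12 libraries. Of 8 tested fibroblast markers, 5 were called higher in Ly6C tumor and 7 in Ly6G tumor, beside 46.2% and 51.5% of all genes tested. Their sum was 193 to 365 FPKM in Ly6C tumor against 1.89 to 2.40 in Ly6C spleen, and 137 to 329 in Ly6G tumor against 4.14 to 6.44 in Ly6G spleen. Most of it was Col3a1, a fibrillar collagen, with 170.5 to 327 FPKM in Ly6C tumor and 124 to 248 in Ly6G tumor. Dcn, Pdgfra and Lum were at 0 in all Ly6C spleen libraries and at 3.81 to 10.2 FPKM in Ly6C tumor, while Thy1 passed under neither label (-0.05 and -0.91) and Col1a1 overlapped between tissues in Ly6C (0.898 to 5.57 FPKM in tumor against 0.650 to 1.009 in spleen). The 2 tested epithelial genes of 8 listed, Krt8 and Krt18, rose under both labels. The part of these cells in the Ctsl level was not tested.

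Ctss encodes cathepsin S, the main invariant chain protease of B cells, dendritic cells and macrophages. Its levels were 52.1, 28.8 and 62.2 FPKM in Ly6C tumor, against 160.1, 406 and 122 in Ly6C spleen. In Ly6G tumor they were 33.8, 22.8 and 50.5 FPKM, against 97.9, 102 and 187 in Ly6G spleen. No tumor library reached the lowest spleen library of its label, and Ly6C spleen 2 was far above every other library. The change was -2.11 ± 0.46 in Ly6C (limma adjusted p = 0.00119) and -1.83 ± 0.46 in Ly6G (limma adjusted p = 0.00318).

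Ctsc encodes cathepsin C, or dipeptidyl peptidase I, which removes the N-terminal dipeptide that keeps granule serine proteases inactive. Its levels were 9.92, 4.39 and 12.2 FPKM in Ly6C tumor, against 30.7, 63.7 and 22.6 in Ly6C spleen, and the change was -1.99 ± 0.43 (limma adjusted p = 0.00119). Within Ly6G its levels were 3.83, 3.36 and 9.44 FPKM in tumor, against 14.4, 14.3 and 17.8 in spleen, a change of -1.45 ± 0.43 (limma adjusted p = 0.00912), which was no longer called with no filter on low values (limma adjusted p = 0.0649). The groups did not overlap under either label, and Ly6G tumor 3 lay well above the other Ly6G tumor libraries. Of 6 listed granule proteases, the 3 tested (Elane, Prtn3 and Ctsg) were lower in tumor under both labels. Elane, neutrophil elastase, averaged 0.538 FPKM in Ly6C tumor against 51.3 in Ly6C spleen (log2 change -5.15) and 0.451 in Ly6G tumor against 22.5 in Ly6G spleen (-4.02). Prtn3, proteinase 3, changed by -3.71 in Ly6C and -2.50 in Ly6G, and Ctsg, a granule protease that carries the cathepsin name but is no lysosomal cathepsin, by -3.67 and -3.31. The neutrophil markers moved with them, 10 of 10 lower under both labels, beside 30.5% of all genes tested in Ly6C and 24.7% in Ly6G. These markers summed to 1381 to 2616 FPKM in Ly6C tumor against 65020.3 to 101844 in Ly6C spleen and to 4273 to 8505 in Ly6G tumor against 126190.3 to 160239.7 in Ly6G spleen. Their part in the Ctsc level was not tested.

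Ctsh, cathepsin H, is an aminopeptidase. It showed the largest fall of the 10 genes under both labels, with 4.68, 2.08 and 3.98 FPKM in Ly6C tumor against 27.8, 40.9 and 25.0 in Ly6C spleen. The Ly6G tumor libraries had 2.83, 1.84 and 4.72 FPKM, against 19.2, 21.0 and 20.7 in Ly6G spleen. Every spleen library was several times above every tumor library. The change was -2.83 ± 0.28 in Ly6C (limma adjusted p = 1.91e-06) and -2.42 ± 0.28 in Ly6G (limma adjusted p = 7.94e-06).

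The remaining cysteine cathepsins moved less. Ctsz, cathepsin Z (also called X), is a carboxypeptidase abundant in myeloid cells. In Ly6G tumor it had 233, 219.6 and 271 FPKM, against 103, 92.8 and 166 in Ly6G spleen, with no overlap and a mean 2.0-fold higher (log2 change 1.04 ± 0.28, limma adjusted p = 0.00523). Under median-of-ratios scaling this change was 0.52 with adjusted p = 0.0733. In Ly6C tumor Ctsz had 292, 242 and 264 FPKM, against 189, 310.3 and 136 in Ly6C spleen, where Ly6C spleen 2 exceeded all tumor libraries and the change of 0.40 ± 0.28 did not pass (limma adjusted p = 0.206). Without Ly6C spleen 2, the Ly6C change was 0.72 and passed (limma adjusted p = 0.0181).

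Ctsb, cathepsin B, which combines endopeptidase and carboxypeptidase activity, had 152, 143 and 156 FPKM in Ly6C tumor, against 97.3, 149 and 79.6 in Ly6C spleen. The groups overlapped through Ly6C spleen 2 alone. The change was 0.51 ± 0.24 (limma adjusted p = 0.0661), 0.76 without that library (limma adjusted p = 0.00663), and it also passed without Ly6G spleen 3, which enters only through the shared spread (limma adjusted p = 0.0457). In Ly6G tumor Ctsb had 144, 131 and 175 FPKM, against 120.2, 96.0 and 163 in Ly6G spleen, a change of 0.27 with a 95% interval of -0.25 to 0.78 (limma adjusted p = 0.32). It passed with equal sums (0.61, limma adjusted p = 0.0344) and without Ly6C spleen 2 and Ly6G spleen 3 together (0.47, limma adjusted p = 0.0214), and was -0.25 with median-of-ratios factors (limma adjusted p = 0.295).

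Ctsk, cathepsin K, the collagen-degrading protease of osteoclasts, was the lowest of the 10 genes in every group. It averaged 0.649 ± 0.180 FPKM in Ly6C tumor and 0.342 ± 0.126 in Ly6C spleen, and 1.55 ± 0.979 in Ly6G tumor and 0.783 ± 0.253 in Ly6G spleen (SD, n = 3 each). Within Ly6G tumor, library 3 had 2.64 FPKM and the others 1.27 and 0.737. Neither change passed (limma adjusted p = 0.243 in Ly6C and 0.082 in Ly6G), while the Ly6G change passed without Ly6G tumor 2 (0.70, limma adjusted p = 0.00848) and with equal sums (0.87, limma adjusted p = 0.0225). Of the osteoclast markers only Nfatc1 and Acp5 were tested, both lower in tumor under both labels, and Calcr was at 0 throughout.

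Ctsd, cathepsin D, is the chief aspartic endopeptidase of lysosomes. It had 189, 147 and 191 FPKM in Ly6C tumor, against 301, 236 and 297 in Ly6C spleen. In Ly6G tumor it had 196, 218 and 304 FPKM, against 448, 474 and 490.2 in Ly6G spleen. The groups did not overlap under either label, and Ly6G spleen was the highest of the 4 groups. The change was -0.66 ± 0.18 in Ly6C (limma adjusted p = 0.00559) and -1.0 ± 0.18 in Ly6G (limma adjusted p = 0.000331).

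Ctsa, cathepsin A, also shields the lysosomal sialidase and beta-galactosidase from breakdown. Its levels were 43.1, 35.3 and 36.8 FPKM in Ly6C tumor, against 37.8, 70.7 and 25.7 in Ly6C spleen, and 37.2, 34.1 and 38.8 in Ly6G tumor, against 25.7, 25.2 and 46.1 in Ly6G spleen. In both tissue comparisons the 3 tumor libraries lay within the range of the spleen libraries. The changes were -0.10 in Ly6C (95% interval -0.78 to 0.59) and 0.23 in Ly6G (-0.45 to 0.92), where it was -0.27 with median-of-ratios factors and passed without Ly6C spleen 2 and Ly6G spleen 3 together (0.51, limma adjusted p = 0.0153). On the deposited scale its partners went apart: Glb1, beta-galactosidase, was higher in tumor (1.65 ± 0.21 in Ly6C and 1.89 ± 0.21 in Ly6G), and Neu1, the sialidase, was lower (-1.63 ± 0.12 and -0.64 ± 0.12), all with limma adjusted p of 0.000425 or less. Scaled to the 20 pan-leukocyte genes, both were higher in tumor, Glb1 by 5.18 in Ly6C and 4.13 in Ly6G and Neu1 by 2.11 and 1.96. Psap, the saposin precursor, changed by -0.55 and 0.14 and did not pass. Ctsa shares 1515 bases with Pltp on the opposite strand (2.51 to 22.3 FPKM), and whether the counting used strand is not given in the sources used here.

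Cst3, cystatin C, ranked 2 of the 10 genes by mean level in Ly6C tumor and both spleen groups and below Ctsz and Ctsd in Ly6G tumor. It had 224, 244 and 227 FPKM in Ly6C tumor, against 228, 347 and 178 in Ly6C spleen, and the change was -0.06 with a 95% interval of -0.55 to 0.43, although it passed with quantile normalization (-0.65, limma adjusted p = 0.0133). In Ly6G tumor it had 182, 163 and 159 FPKM, against 219, 211 and 314 in Ly6G spleen. Here the groups did not overlap, and the change of -0.54 ± 0.22 only just passed (limma adjusted p = 0.0463). That call was lost without any of 9 of the 12 libraries in turn, at limma adjusted p up to 0.179 (without Ly6G spleen 3). It was also lost with equal sums, at a change of -0.19 (limma adjusted p = 0.476), with no filter on low values (limma adjusted p = 0.166) and with the replicate number as a block (limma adjusted p = 0.0685), and it reversed to 2.21 on the pan-leukocyte scaling.

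**Figure D2:**
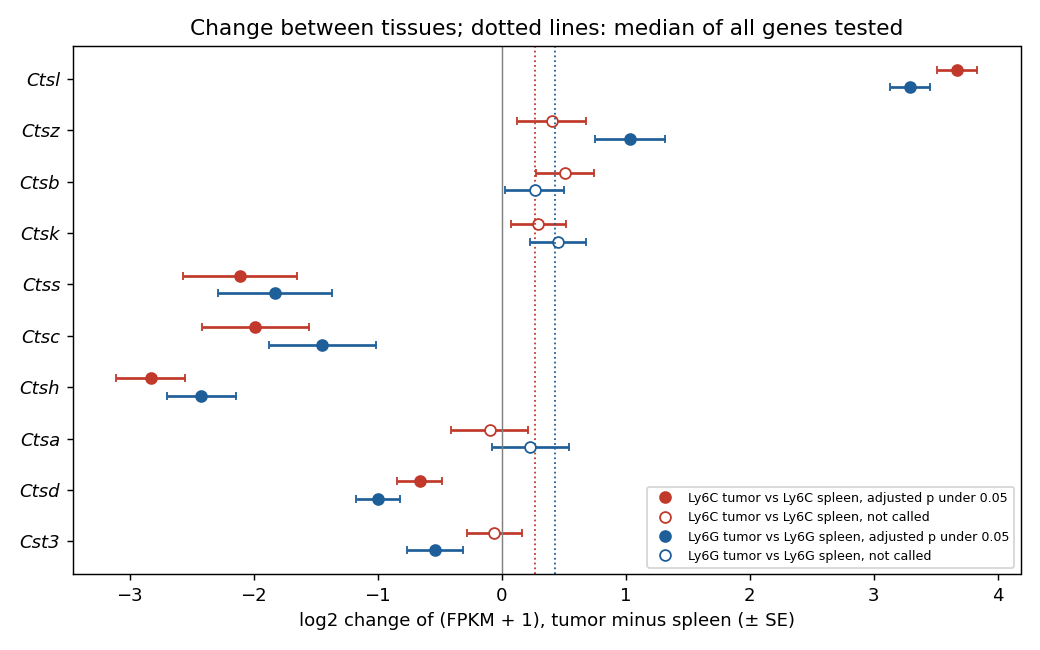
Change of each gene between tumor and spleen as log2(FPKM + 1) with the standard error, for Ly6C (red) and Ly6G (blue); filled points passed at an adjusted p under 0.05, and dotted lines mark the median of all genes tested, 0.27 in Ly6C and 0.43 in Ly6G. Ctsl lies above 3 under both labels, Ctsh below -2, and the falls hold on this deposited scale but not on one set to 20 pan-leukocyte genes.

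The directions of the falls depended on what the libraries were scaled to. With deposited values, equal sums, median-of-ratios factors, quantile normalization or equal sums without S100a8 and S100a9, Ctsl was higher in tumor and Ctss, Ctsc, Ctsh and Ctsd lower, under both labels. Scaled to the 20 pan-leukocyte genes, the median of all genes moved to 3.25 in Ly6C and 2.30 in Ly6G, and Ctsl was 7.12 and 5.56. The falls of Ctss, Ctsc and Ctsd reversed under both labels. Ctsh passed under neither label (limma adjusted p = 0.062 in Ly6C and 0.97 in Ly6G). Ctss was then 1.77 in Ly6C and 0.885 in Ly6G, Ctsc 1.70 and 0.99, Ctsd 3.25 and 1.76, and Ctsh 0.69 and -0.01. Set against the median of all genes under that scaling, Ctsh was at -2.56 and -2.31, Ctsc at -1.55 and -1.31 and Ctss at -1.48 and -1.41, while Ctsl was at 3.87 and 3.26. Ctsl stood above Ctsb, and Ctsb above Ctsd, Ctss, Ctsc and Ctsh, under all 6 scalings and both labels. Ctsd was level with the median of all genes in Ly6C under that scaling.

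**Figure D3:**
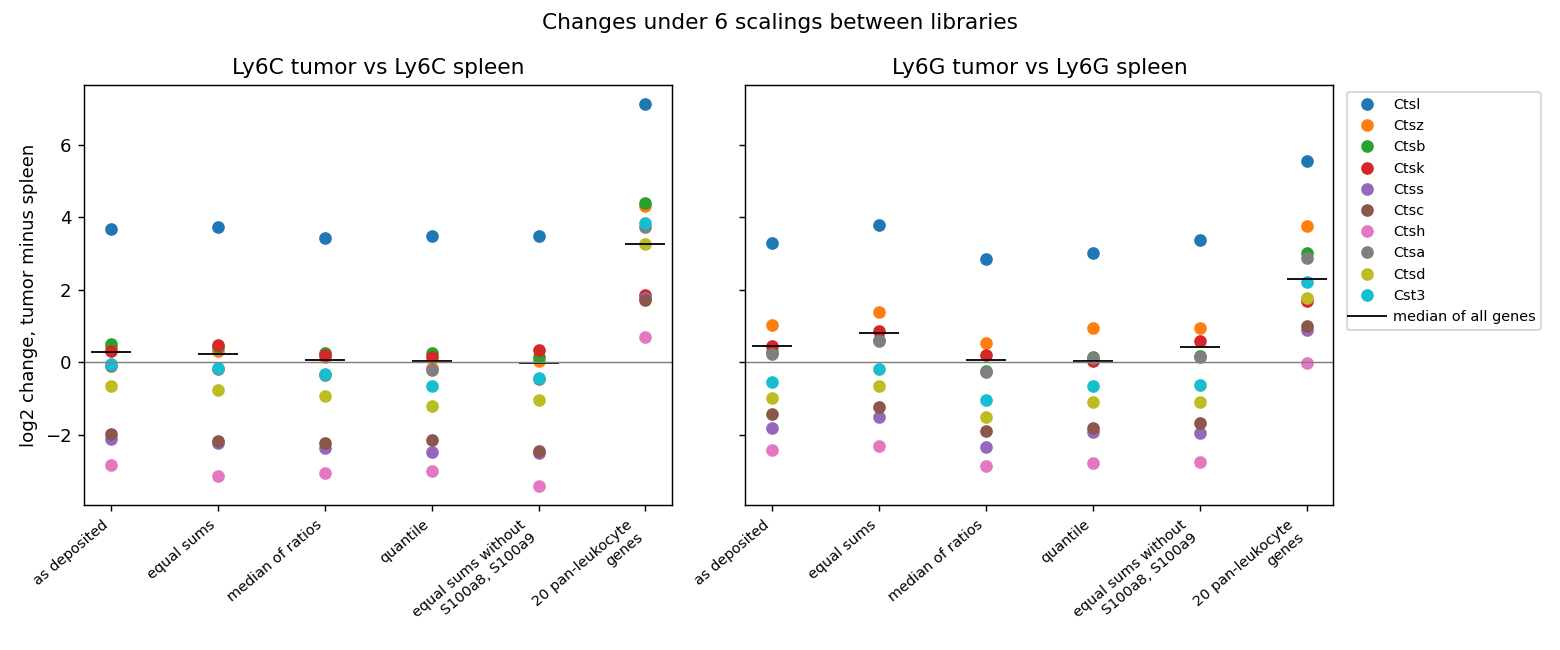
Change of each gene between tumor and spleen under 6 scalings of the libraries, for Ly6C (left) and Ly6G (right), as log2 of the scaled value + 1; black bars mark the median of all genes tested. Under the scaling to 20 pan-leukocyte genes the whole set shifts upward, with the median of all genes at 3.25 in Ly6C and 2.30 in Ly6G, and Ctsh stays the lowest gene.

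Because scaling cancels within a library, the make-up of the cathepsin transcripts was also described. The 9 cathepsins summed to 765 ± 72.3 FPKM in Ly6C tumor and 948 ± 298 in Ly6C spleen, and to 766 ± 125 in Ly6G tumor and 920.2 ± 154 in Ly6G spleen (SD, n = 3 each), with overlapping ranges. Ctsl made up 9.79% ± 1.58 of that sum in Ly6C tumor against 0.533% ± 0.069 in Ly6C spleen, and 7.005% ± 0.956 in Ly6G tumor against 0.494% ± 0.063 in Ly6G spleen. Ctsz took 34.8% ± 1.59 in Ly6C tumor against 21.9% ± 2.55 in Ly6C spleen, and 31.7% ± 1.64 in Ly6G tumor against 12.9% ± 2.004 in Ly6G spleen. In the other direction, Ctss took 6.13% ± 1.79 in Ly6C tumor against 22.5% ± 7.91 in Ly6C spleen, and 4.56% ± 1.13 in Ly6G tumor against 13.7% ± 2.92 in Ly6G spleen. The ranges of the tissues did not overlap for these 3 genes under either label.

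Read as a ratio, there were 1.18 to 2.75 FPKM of Ctsl per FPKM of Ctss in Ly6C tumor against 0.0145 to 0.0316 in Ly6C spleen, and 1.06 to 2.25 in Ly6G tumor against 0.0316 to 0.0444 in Ly6G spleen. Every tumor library thus held more Ctsl than Ctss, and every spleen library far less. The summed cysteine cathepsins per Cst3 were 2.39 ± 0.295 in Ly6C tumor and 2.42 ± 0.346 in Ly6C spleen, with overlapping ranges, and 2.94 ± 0.552 in Ly6G tumor against 1.67 ± 0.113 in Ly6G spleen, where the ranges were apart (2.60 to 3.57 against 1.57 to 1.79). No test was made of these ratios.

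**Figure D4:**
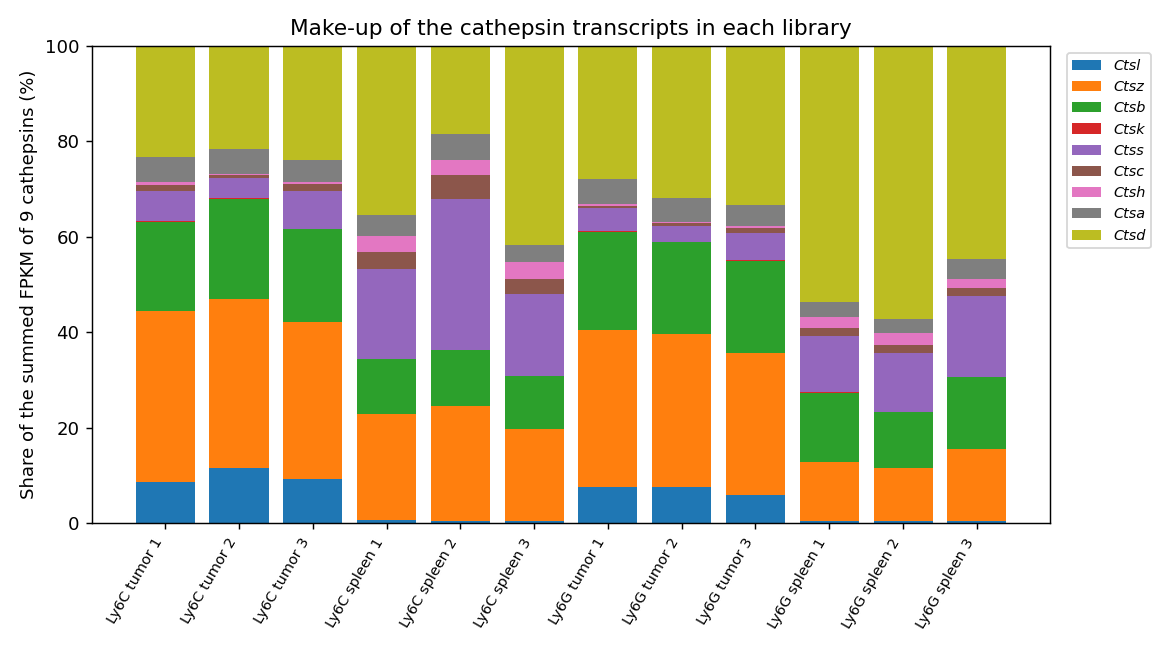
Share of each of 9 cathepsins in their summed FPKM, in percent, for each of the 12 libraries. Ctsl (bottom, blue) makes up 5.90% to 11.6% in the tumor libraries and 0.422% to 0.596% in the spleen libraries, and Ctsd (top) makes up 44.6% to 57.2% in Ly6G spleen.

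The order of the levels followed from this. In Ly6C tumor the order was Ctsz, Cst3, Ctsd, Ctsb, Ctsl, Ctss, Ctsa, Ctsc, Ctsh and Ctsk, and the ranges of Ctsz and Cst3, Ctsd and Ctsb, Ctss and Ctsa, and Ctsc and Ctsh overlapped. In Ly6C spleen it was Ctsd, Cst3, Ctss, Ctsz, Ctsb, Ctsa, Ctsc, Ctsh, Ctsl and Ctsk, and neighbours among the first 5 overlapped, as did Ctsa, Ctsc and Ctsh. In Ly6G tumor it was Ctsz, Ctsd, Cst3, Ctsb, Ctsl, Ctsa, Ctss, Ctsc, Ctsh and Ctsk, where Ctsz and Ctsd, Cst3 and Ctsb, Ctsa and Ctss, Ctsc and Ctsh, and Ctsh and Ctsk overlapped. In Ly6G spleen it was Ctsd, Cst3, Ctss, Ctsb, Ctsz, Ctsa, Ctsh, Ctsc, Ctsl and Ctsk, and of the neighbours only Ctss, Ctsb and Ctsz overlapped. Ctsl held rank 5 in both tumor groups and rank 9 in both spleen groups.

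Between the labels the genes differed less. In tumor, 0 of 10 genes were called between Ly6C and Ly6G, where 14.5% of all genes were (5.8% higher and 8.7% lower). An unadjusted limma p under 0.05 was found for 3 of 10 (Ctsl, Ctsk and Ctsd). The share of all genes at that unadjusted threshold was not computed, so this count has no background beside it. The Ctsl change, Ly6C minus Ly6G, was 0.48 ± 0.16 (limma adjusted p = 0.0684) and that of Ctsd -0.43 ± 0.18 (limma adjusted p = 0.128). Ctsl, Ctsd and Cst3 did not overlap between the labels in tumor, 3 of 10, beside 42.3% of all genes. Without Ly6C spleen 3 or Ly6G spleen 3 the Ctsl difference passed (limma adjusted p = 0.0499 and 0.0383), as it did with a pseudocount of 5 (limma adjusted p = 0.0207), median-of-ratios factors (limma adjusted p = 0.0343) or a fit of the tumor groups alone (limma adjusted p = 0.0161). That of Ctsd passed with quantile normalization (-0.62, limma adjusted p = 0.0494) and with equal sums without S100a8 and S100a9 (-0.57, limma adjusted p = 0.0484). Ctsk passed the filter on low values only through Ly6G libraries. Neither its unadjusted p nor its call without Ly6G tumor 2 (-0.81, limma adjusted p = 0.0396) therefore supports a difference between the labels.

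In spleen, Ctsd alone passed, where 30.6% of all genes were called (22.1% higher and 8.59% lower). Its mean was 278 ± 36.1 FPKM in Ly6C spleen against 471 ± 21.4 in Ly6G spleen (± SD, n = 3 each), with no overlap and a change of -0.77 ± 0.18 (limma adjusted p = 0.00826). The call was lost with quantile normalization (-0.51, limma adjusted p = 0.0698) and without Ly6C spleen 2 and Ly6G spleen 3 together (-0.62, limma adjusted p = 0.0592). Ctsc averaged 39.01 ± 21.8 FPKM in Ly6C spleen against 15.5 ± 2.003 in Ly6G spleen, also with no overlap, but its change of 1.15 ± 0.43 did not pass (limma adjusted p = 0.0638). Ctsz had 212 ± 89.2 FPKM in Ly6C spleen against 121 ± 39.5 in Ly6G spleen (0.77 ± 0.28, limma adjusted p = 0.0564). Single libraries and the scaling moved both across the threshold: without Ly6C spleen 3 they were 1.46 (limma adjusted p = 0.0331) and 1.05 (limma adjusted p = 0.0136), without Ly6G spleen 3 Ctsz was 1.03 (limma adjusted p = 0.0209), and without Ly6C tumor 2 or Ly6G tumor 3 Ctsc passed through the shared spread (limma adjusted p = 0.0452 and 0.0433). With equal sums Ctsc was 1.5 (limma adjusted p = 0.0172), Ctsz 1.1 (limma adjusted p = 0.00901) and Ctsh 0.90 (limma adjusted p = 0.0339). Both Ctsc and Ctsz also passed with equal sums without S100a8 and S100a9 (limma adjusted p = 0.0314 and 0.0149), Ctsc with a pseudocount of 5 (limma adjusted p = 0.041), and Ctsz with quantile normalization (limma adjusted p = 0.0201) or a filter at 5 FPKM (limma adjusted p = 0.0497). Ctsc, Ctsd, Ctsh and Ctsk did not overlap between the labels in spleen, 4 of 10, beside 42.1% of all genes. Ctsk was near the floor, at 0.250 to 0.486 FPKM in Ly6C spleen against 0.582 to 1.07 in Ly6G spleen. As it passed the filter only through Ly6G libraries, its lack of overlap supports no difference between the labels.

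Whether the tissue change itself differed between the labels was tested as an interaction. For these genes 0 of 10 passed in limma, while 21.8% of all genes passed (6.02% higher and 15.8% lower). At an unadjusted limma p under 0.05 it was also 0 of 10, a threshold at which the share of all genes was not computed. The estimates, Ly6C change minus Ly6G change, ran from -0.63 ± 0.40 for Ctsz (95% interval -1.5 to 0.24) to 0.48 ± 0.32 for Cst3 (-0.22 to 1.18). For Ctsl it was 0.38 (-0.12 to 0.89) and for Ctss -0.28 (-1.70 to 1.14). The intervals of Ctss and Ctsc (-1.88 to 0.79) are wide, so the tissue changes are not shown to be alike under the labels.

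Within groups, much of the spread was shared by the genes. Ly6C spleen 2 was the highest library of its group for 9 of 10 genes, Ctsd being the exception. Ly6G spleen 3 was the highest for 9 of 10 (not Ctsh), and Ly6G tumor 3 for 9 of 10 (not Cst3). Csf1r, the receptor of monocytes and macrophages, was also highest there, with 12.6, 5.22 and 12.3 FPKM in Ly6C tumor, 51.2, 127 and 39.1 in Ly6C spleen, 7.78, 8.46 and 16.2 in Ly6G tumor, and 34.6, 31.2 and 60.7 in Ly6G spleen. The summed macrophage markers, which include Csf1r, were highest in Ly6C spleen 2 (374 FPKM), Ly6G tumor 3 (269) and Ly6G spleen 3 (657). In Ly6C spleen the markers did not all follow their sum. Apoe (94.6 and 65.5 FPKM in libraries 1 and 2), C1qa (51.1 and 44.7) and C1qb (40.5 and 37.7) were higher in library 1. Adgre1 (12.1 and 30.3) and Fcgr1 (10.5 and 24.6) were higher in library 2. The mitochondrial share was highest in the same libraries of their groups, at 2.50% in Ly6C spleen 2, 11.9% in Ly6G tumor 3 and 2.87% in Ly6G spleen 3. The part of these cells and of the mitochondrial share in the cathepsin levels was not tested. Ly6C tumor 2 was the lowest of its group for 8 of the 10 genes, the exceptions being Ctsl and Cst3. It had the lowest pan-leukocyte sum (191 FPKM) and the highest epithelial sum (1019.7 FPKM) of the 12 libraries. Nearly all of that epithelial sum was Krt8 (769.96 FPKM) and Krt18 (249.2). Every other listed epithelial gene was at 0.265 FPKM or less in this library, with Epcam at 0. Ly6G tumor 2 was likewise the lowest of its group for all genes but Ctsd and Cst3, without these extremes. Its pan-leukocyte sum was 766 FPKM, against 474 in Ly6G tumor 1 and 831 in Ly6G tumor 3. Its epithelial sum was 697 FPKM, against 754 and 446. The part of either sum in the cathepsin levels was not tested.

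Between tissues, 46.2% of all genes tested were called higher and 30.5% lower in Ly6C, and 51.5% higher and 24.7% lower in Ly6G. Beside that, 0 of 11 macrophage markers were called higher in tumor, with 5 lower in Ly6C and 8 in Ly6G. They summed to 109 to 211 FPKM in Ly6C tumor against 159 to 374 in Ly6C spleen and to 70.9 to 269 in Ly6G tumor against 271 to 657 in Ly6G spleen. Monocyte markers were lower for 6 of 6 in Ly6C and 4 of 6 in Ly6G, and B cell markers for 8 of 8 under both labels, summing to 5.12 to 8.57 FPKM in Ly6C tumor against 246 to 377 in Ly6C spleen and 5.18 to 8.20 in Ly6G tumor against 730.01 to 1260.2 in Ly6G spleen. Ctss is commonly high in these cell types, and their part in its fall was not tested.

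Distances between profiles, as the root mean square difference of mean-centred log2(FPKM + 1) over the 12 libraries, set the genes into loose groups. The closest pair was Ctss and Ctsc at 0.30, and Ctss and Ctsh were 0.47 apart. Ctsl was far from all of them. Neighbours were sought among the other genes tested, leaving out genes without a symbol and predicted genes (Gm and Rik symbols) outside the lists. Those nearest to Ctsl were Mtap at 0.15, Ddx1 at 0.16 and Ppp1r14b at 0.19. Nearest to Ctsc were Tifab at 0.25 and Ifi30 at 0.29, and nearest to Ctsh were Lmo2 at 0.20, Napsa at 0.25 and Ggh at 0.27. Rftn1, Clec4a1 and Tlr9 lay nearest to Ctss, at 0.23 to 0.27. These distances describe the same 12 libraries and carry no test.

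Other genes of lysosomal proteolysis were read by group, and their directions are those of the deposited scale. The background for every list that follows was 76.7% of genes called in Ly6C (46.2% higher and 30.5% lower). In Ly6G it was 76.2% (51.5% higher and 24.7% lower). Scaled to the 20 pan-leukocyte genes, list medians turned positive in Ly6C and Ly6G for the vacuolar ATPase (2.87 and 1.90), the class II pathway (1.67 and 0.50) and the other cystatins and stefins (1.28 and 0.37), while the granule serine proteases stayed lower (-1.91 and -1.67). Of the genes named here, Elane, Cst7 and Sort1 were lower in tumor under both labels on that scaling too, and Cd74 was higher in Ly6C (1.12) and lower in Ly6G (-1.39). Of 10 other lysosomal proteases, 5 were higher and 3 lower in Ly6C tumor, and 4 higher and 4 lower in Ly6G tumor (list medians 0.24 in both). Lgmn, the asparaginyl endopeptidase legumain that processes several cathepsins, was higher, with 117, 104 and 112 FPKM in Ly6C tumor against 23.6, 44.6 and 14.6 in Ly6C spleen (2.11 ± 0.34, limma adjusted p = 0.000137), and by 1.5 in Ly6G. Scpep1, a serine carboxypeptidase, rose by 2.45 and 3.46. Napsa, the aspartic protease napsin A, fell in Ly6C (-2.94) and Ly6G (-2.14), as did Ctse, the endosomal aspartic protease cathepsin E (-2.05 and -2.27).

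Among 13 other cystatins and stefins, 8 were tested, of which 1 was higher and 5 were lower under both labels, with a median of -1.88 in Ly6C and -1.90 in Ly6G. The gene that rose was Cstb, stefin B, the cytosolic inhibitor of cathepsins B, H, L and S, with 205, 223 and 311 FPKM in Ly6C tumor against 43.3, 61.8 and 32.0 in Ly6C spleen (2.43 ± 0.22, limma adjusted p = 9.99e-07). In Ly6G tumor it had 159, 183 and 193 FPKM against 53.8, 50.9 and 59.8 in Ly6G spleen (1.68 ± 0.22, limma adjusted p = 2.5e-05). Cst7, cystatin F, an inhibitor of cathepsin C in immune cells, averaged 0.0468 FPKM in Ly6C tumor against 2.57 in Ly6C spleen, and 0.0761 in Ly6G tumor against 2.44 in Ly6G spleen. The stefin A genes Stfa3 (-2.71 in Ly6C and -3.00 in Ly6G) and BC100530 (-2.86 and -2.87) were lower, and Stfa2l1 did not pass (0.04 and -0.69). These are near-identical copies, so the split of fragments between them is uncertain.

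In the class II pathway, 3 of 4 genes were lower under both labels, with a median of -2.10 in Ly6C and -2.11 in Ly6G. Cd74, the invariant chain that cathepsins S and L cut, averaged 58.1 FPKM in Ly6C tumor against 358 in Ly6C spleen (-2.77 ± 0.53, limma adjusted p = 0.000481) and 39.2 in Ly6G tumor against 663 in Ly6G spleen (-4.13 ± 0.53, limma adjusted p = 2.02e-05). B cell markers were lower in the same comparisons, and their part in the Cd74 level was not tested.

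The machinery that delivers and activates cathepsins moved in both directions. Of 17 tested subunits of the vacuolar ATPase, 14 were lower and 1 higher in Ly6C tumor, and 11 lower and 1 higher in Ly6G tumor, with medians of -0.89 and -0.66. Among all genes tested, 30.5% were lower and 46.2% higher in Ly6C, and 24.7% lower and 51.5% higher in Ly6G. Atp6v1b2, a subunit of the catalytic sector, changed by -1.82 and -1.87, while Atp6v1f was 0.59 in Ly6C and Tcirg1 0.38 in Ly6G. Of 10 sorting genes, 2 were higher and 5 lower in Ly6C, and 4 higher and 4 lower in Ly6G. Igf2r, the large mannose 6-phosphate receptor, rose by 1.89 in Ly6C and 2.71 in Ly6G. Sort1, sortilin, a sorting receptor that does not need mannose 6-phosphate, had changes of -4.50 and -3.17.

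Lysosomal membrane proteins were mixed, with 5 of 13 higher and 3 lower in Ly6C, and 6 higher and 1 lower in Ly6G. Lamp1, the abundant glycoprotein of the lysosomal membrane, rose by 0.55 in Ly6C (limma adjusted p = 0.0353) and 0.84 in Ly6G (limma adjusted p = 0.00365). With median-of-ratios factors neither passed (limma adjusted p = 0.158 and 0.0946), and the Ly6C call was also lost with equal sums, quantile normalization and equal sums without S100a8 and S100a9. Laptm4a rose by 2.21 and 1.54, and Laptm5, a membrane protein of blood cells, changed by -2.93 and -1.46. Cd68, the macrophage sialomucin, was lower in Ly6C (-1.17, limma adjusted p = 0.0109) and did not pass in Ly6G (-0.37, limma adjusted p = 0.364).

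Of 26 other hydrolases, 9 were higher and 9 lower in Ly6C, and 12 higher and 11 lower in Ly6G. Gaa, the acid alpha-glucosidase, rose by 3.68 in Ly6C and 3.91 in Ly6G, and Arsa, arylsulfatase A, by 3.56 and 3.96. Arsb, arylsulfatase B, went the other way, by -3.20 and -2.12, as did Acp5, tartrate-resistant acid phosphatase, by -1.27 and -2.31. Of 8 tested MiT/TFE regulators, 3 were higher and 4 lower in Ly6C, and 3 higher and 3 lower in Ly6G. Tfeb, the factor that reads the CLEAR element, averaged 5.28 FPKM in Ly6C tumor against 22.6 in Ly6C spleen (-1.91 ± 0.20) and 7.24 in Ly6G tumor against 12.4 in Ly6G spleen (-0.72 ± 0.20), where the call was lost with equal sums (limma adjusted p = 0.0739). On the pan-leukocyte scaling both falls of Tfeb reversed, to 1.69 in Ly6C and 1.72 in Ly6G. Lamtor1, which anchors the Ragulator complex, changed by -1.29 in Ly6C and -0.87 in Ly6G, while Mtor (0.73 and 1.57) and Flcn (0.53 and 1.76) were higher.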

How the data were processed

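Per the labels' protocols, total RNA went into Illumina libraries read by the paired-end method. The deposited values are FPKM per gene and library, computed by the authors. HISAT2 2.0.5 and featureCounts 1.5.0-p3 on GRCm38 are named in the submitters' processing notes. No source used here names the FPKM tool, the annotation release, filters or the use of strand. Values are relative to each library's own total, so a few abundant genes shift all others.

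Symbols came from GENCODE M21, and 570 assembled loci were left out. Genes with 1 FPKM in at least 3 of 12 libraries (13610) were fitted as log2(FPKM + 1) in limma 3.58.1 (R 4.3.3), with 4 group means, a variance trend, and 8 residual and 3.4 prior degrees of freedom. Tests were two-sided. The model was also run on simulated data in which few genes changed and the make-up of the libraries did not shift. The tissue comparisons differ from that setting, so the run supports no call given here. The genes, lists and tests were chosen with earlier results of these data known. Other named genes were the largest passing rise and fall of each list, a fixed set (Lgmn, Cstb, Cst7, Stfa2l1, Tfeb, Cd68, Lamp1, Psap, Neu1, Glb1, Cd74, Elane, Prtn3 and Ctsg), the most abundant markers and the nearest profiles. Ly6g, Csf1r, Adgre1, Fcgr1, Dcn, Pdgfra, Lum, Thy1, Col1a1, Calcr and Epcam were picked from the marker lists after their values were seen. Alternatives were other pseudocounts, filters and scalings, fits of 2 groups, a replicate block, no variance trend, and libraries left out. Promoters are RefSeq sequences. Low values did not step in whole fragments, so no counting interval was computed. Figures used matplotlib 3.10.9.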

Additional observations from a re-analysis of the deposited data

How the results depend on the processing

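Of 1285 values of the 10 genes over all comparisons and alternatives, 1151 kept their direction and side of the threshold, 54 passed only under the alternative, 19 no longer passed, 50 changed sign while passing under neither setting, and 11 changed sign with a call under at least 1 setting. Of the 50, 6 came with the scaling to 20 pan-leukocyte genes, 23 with other scalings, 20 with libraries left out and 1 with another pseudocount. Between tissues they were Ctsb (-0.25) and Ctsa (-0.27) in Ly6G with median-of-ratios factors, Ctsz in Ly6C (-0.18) with quantile normalization, and Ctsa (0.29) and Cst3 (0.20) in Ly6C without Ly6C spleen 2, alone or with Ly6G spleen 3. The 11 changes of sign that involved a call came with the scaling to 20 pan-leukocyte genes. In Ly6C between tissues they were Ctsc at 1.70, Ctsd at 3.25, Ctsh at 0.69, Ctss at 1.77, Cst3 at 3.85 and Ctsa at 3.72. Of these, Ctsh did not pass on that scaling (limma adjusted p = 0.062). In Ly6G between tissues they were Ctsc at 0.99, Ctsd at 1.76, Ctss at 0.885 and Cst3 at 2.21, and between labels in tumor Ctsd at 0.71. This scaling gave 9 genes higher and 0 lower in each tissue comparison, 9 higher in Ly6C tumor over Ly6G tumor, 0 lower in spleen, and 3 of 10 interactions, with 9851 of all genes called in tumor and 161 in spleen. It divides by genes that were all lower in tumor, which by construction raises the rest.

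Counts of the 10 genes moved as follows, and the cause was not tested. Ly6C between tissues (1 higher, 4 lower) had 3 higher without Ly6C spleen 2 and Ly6G spleen 3 together, a choice made after seeing the data. Leaving out each library gave 1 to 3 higher and 4 to 4 lower. Ly6G between tissues (2 higher, 5 lower) had 4 higher on the scale of equal sums (TPM), 1 with median-of-ratios factors, 4 without both spleen libraries, and 3 lower with no filter, while leaving out each library gave 2 to 3 higher and 4 to 5 lower. Tumor between labels (0 and 0) had 1 higher with a pseudocount of 5 or median-of-ratios factors, 2 in a fit of the 2 groups, 2 without both spleen libraries, and 1 lower with quantile normalization or equal sums without S100a8 and S100a9. Leaving out each library gave 0 to 1 in each direction. Spleen between labels (0 higher, 1 lower) had 1 higher with a pseudocount of 5, a filter at 5 FPKM, quantile normalization, both tumor libraries numbered 3 left out or both spleen libraries left out, 2 with equal sums without S100a8 and S100a9, and 3 with equal sums. It had 0 lower with quantile normalization or without both spleen libraries, and 0 to 2 higher on leaving out each library.

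Calls over all genes were 6694 in Ly6C (of 10443) and 6648 in Ly6G (of 10367) with a filter at 5 FPKM, which tests fewer genes. In tumor (1974) they were 753 with no filter, 260 without both tumor libraries numbered 3, 3057 without both spleen libraries, and 746 to 2618 on leaving out each library. In spleen (4171) they were 2586 in a fit of the 2 groups. For the interaction (2972) they were 1663 with no filter, 4931 with equal sums and 1417 without both tumor libraries numbered 3.

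Same-numbered libraries deviated together at correlations from -0.36 to 0.279 across genes, and differently numbered ones at -0.393 to 0.427. The numbers thus showed no pairing of the samples. Pairing is not excluded by this check, since the deviations are from means of only 3 libraries. With the replicate number as a block, Cst3 in Ly6G between tissues no longer passed (adjusted p = 0.0685), which left 4 lower, and no other call of the 10 genes changed. The depth in fragments is unknown, so what it limits was not measured.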
